A study of Mus musculus with 8 samples.

Results

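Imprinted genes are read mainly from the copy inherited from 1 parent, a choice set by DNA methylation laid down in the egg or the sperm. The list examined here held 10 of them: Meg3, Rian and Mirg, long non-coding RNAs of the Dlk1-Meg3 region, and the other members H19, Igf2r, Grb10, Ndn, Peg3, Plagl1 and Gnas. The list was chosen with the log2 differences between the Msi2 KO and control arrays in these same data known, and Meg3 and Rian by their own. Those differences are therefore given below as a description and carry no test. A probe set counts here if it names 1 of these genes and no other and is above 0 on the arrays. Of 43 probe sets naming these genes alone, 18 were measured, out of 24404 measured in all, which covered 7 of the 10 genes, and 25 were listed at 0 on all 8 arrays.

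The RNA came from LSK cells of mouse bone marrow, which are lineage-negative, Sca-1-positive and Kit-positive cells that include the blood stem cells. The 4 control samples were labelled wild type (WT), and the 4 Msi2 KO samples came from mice with a conditional knockout of Msi2. Msi2 is the gene of Musashi-2, a protein that binds RNA and sustains blood stem cells. The driver of the deletion, the strain, the age and any treatment of either group, and whether animals were pooled, are not given in the sources used here. Values are log2 signals of Affymetrix probe sets, so a difference of 1 is a factor of 2 in signal.

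In blood stem cells the Dlk1-Meg3 region is known for non-coding RNAs read from the maternal chromosome, which carry clusters of microRNAs and small nucleolar RNAs, and for the paternally read growth regulator Dlk1. H19, Igf2r and Grb10 are maternally read in most tissues and are known as brakes on growth through the insulin-like growth factor pathway. Ndn, Peg3 and Plagl1 are paternally read regulators of growth and the cell cycle, and Gnas encodes the G protein subunit Gs alpha together with transcripts read from 1 parental copy.

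Sequences of the region are shown because Meg3 and Rian carried the largest differences of the list and because they are processed into microRNAs, whose mature forms are not analysed here. In RefSeq (GRCm38.p6), 9 of the 10 genes matched a promoter of 250 bases before to 50 bases after the start, and H19 did not. The first listed Meg3 promoter, shown here, lies at chr12:109540746-109541045 on the plus strand and the Rian promoter at chr12:109603695-109603994 on the same strand. Capitals mark matches on either strand to the cAMP response element TGACGTCA and to the TATA box letters TATAAA.
Meg3 promoter: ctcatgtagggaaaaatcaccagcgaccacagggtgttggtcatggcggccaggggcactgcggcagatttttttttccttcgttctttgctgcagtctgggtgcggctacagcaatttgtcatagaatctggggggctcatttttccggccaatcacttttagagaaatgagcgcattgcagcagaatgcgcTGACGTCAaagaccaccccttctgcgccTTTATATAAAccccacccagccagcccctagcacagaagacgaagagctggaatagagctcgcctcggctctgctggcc
Rian promoter: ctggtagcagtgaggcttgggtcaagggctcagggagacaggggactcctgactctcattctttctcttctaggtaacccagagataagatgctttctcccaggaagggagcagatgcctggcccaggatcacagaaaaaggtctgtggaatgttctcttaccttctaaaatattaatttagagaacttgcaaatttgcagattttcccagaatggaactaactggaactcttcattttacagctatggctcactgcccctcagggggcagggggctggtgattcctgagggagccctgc

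The Meg3 window shown held 1 match to TGACGTCA, which 1.79% of 32851 promoters hold, and 2 overlapping matches to TATAAA, which 13.6% hold. The Rian window held neither. Meg3 was not alone in the list: the Peg3 window also held 1 match to TGACGTCA, and windows of Gnas held TATAAA. CpG pairs, the sites of DNA methylation, numbered 13 in this Meg3 window, 0 in that of Rian and 10 in that of Mirg, against a median of 7.0 over all promoters. A second Meg3 promoter, at chr12:109545148-109545447, held 1 CpG pair and neither motif. The first listed windows of Igf2r and Grb10 held 34 and 45. These motifs were chosen after the sequences had been read, and a match is not evidence of binding.

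By its RefSeq position, 1 microRNA hairpin lies inside Meg3, 3 inside Rian and 10 inside Mirg, which together give 27 mature microRNAs. Only 1 seed (bases 2 to 8, in capitals) was shared, GGUUGCC, by miR-453 and miR-496a-5p of Mirg. The 5p arms from the 4 hairpins inside Meg3 and Rian show the unlike seeds of the measured host transcripts.
miR-770-5p (Meg3): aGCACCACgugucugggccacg
miR-341-5p (Rian): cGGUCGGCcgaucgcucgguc
miR-1188-5p (Rian): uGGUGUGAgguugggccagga
miR-370-5p (Rian): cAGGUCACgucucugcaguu

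Of the table as a whole, 45.8% of 45101 probe sets were listed at 0. The arrays had median log2 signals of 7.03 to 7.07 above 0 and correlated at 0.942 to 0.983. Over its 4 bright probe sets, Msi2 RNA kept 72.6%, 63.4%, 15.1% and 40.5% of its control level on Msi2 KO 1 to Msi2 KO 4, so it was lowered unevenly. The first principal component set Msi2 KO 3 apart, and values without it are given where it decides a result. Control 1, Msi2 KO 1 and Msi2 KO 2 lacked Xist and read as male. There the 3 Xist probe sets gave 3.29 to 5.55, a guide to what an absent transcript reads. The values from 4.79 up came from 1 of these probe sets, and the others stayed at 4.19 or below. Eif2s3y, a Y chromosome gene, gave 3.36 to 3.62 on the 5 arrays with high Xist. What an absent transcript reads thus differs by probe set, and the span is a wide, cautious guide. Of the gate's own markers, Kit lay between 8.39 and 9.19, while Sca-1 (Ly6a) had no probe set named to it alone. The progenitor markers Cd34 and Flt3, which are not part of the gate, were also measured. No mature lineage marker was measured: 4 of 7 were listed at 0 and 3 had no probe set of their own. The number of arrays limits the precision, and in such bulk RNA fewer cells of a type and less RNA per cell cannot be told apart.

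Rian had a high signal on controls 1 and 2 and a low one on the other 6 arrays. Its brighter probe set read 8.31, 8.35, 5.55 and 5.36 on controls 1 to 4 and 4.80, 5.03, 4.48 and 4.56 on Msi2 KO 1 to Msi2 KO 4. The KO arrays lay within 0.55 of each other, while the controls spanned 2.99. Group means were 6.89 ± 1.66 and 4.72 ± 0.25 (SD, n = 4 each), a difference of -2.18 ± 0.69 (SE of the limma fit). All 4 KO values and those of controls 3 and 4 lay in the span that absent Xist gave, so their order among themselves is not read, and only controls 1 and 2 stood above it. The value is a difference of signals from which no fold in RNA is read, here and wherever a difference of Rian, Meg3 or their mean is given below. Rian was low also on Msi2 KO 1, which kept 72.6% of the control Msi2 signal, and on controls 3 and 4, at 101% and 97.2%. Its relation to the Msi2 level was not tested.

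The brighter Rian probe set was the only one of the 18 member probe sets whose groups did not overlap. That separation lay between the KO arrays and controls 3 and 4, whose order is not read, and the count is no result about the members. Over all probe sets, 6.09% had groups that did not overlap: 2.96% had every KO array below the controls and 3.12% had every KO array above them. The control SD of this probe set exceeded that of 99.9% of all probe sets, whose median control SD was 0.25. The dim Rian probe set read 3.93, 3.93, 3.53 and 3.66 in controls and 3.69, 3.57, 3.46 and 3.53 in KO. It had the same high pair, controls 1 and 2, but stayed in the span of absent Xist throughout, and its groups overlapped. The other 2 Rian probe sets were listed at 0.

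Meg3, whose RNA is a maternally read growth suppressor, was lower in the mean of the KO arrays on both of its measured probe sets, and its groups overlapped on both. The brighter one read 7.91, 6.42, 4.98 and 6.71 on controls 1 to 4 and 4.98, 5.42, 4.76 and 5.39 on Msi2 KO 1 to Msi2 KO 4. Control 3 was as low as the KO arrays and, like all of them, lay in the span of absent Xist, and the other controls lay above it. The group means were 6.50 ± 1.20 and 5.14 ± 0.32 (SD, n = 4 each), a difference of -1.37 ± 0.51 (SE). Its name ends in _x_at, which marks a probe set whose probes may match other transcripts.

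The dimmer Meg3 probe set gave 5.91, 4.89, 4.59 and 4.60 in controls and 4.63, 4.44, 3.91 and 4.33 in KO. Control 1 was the highest array on both Meg3 probe sets. The difference here was -0.67 ± 0.30 (SE), but only control 1 lay above the span of absent Xist, so the order of the other 7 arrays is not read. The remaining 9 of the 11 Meg3 probe sets, and both Mirg probe sets, were listed at 0.

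**Figure D1:**
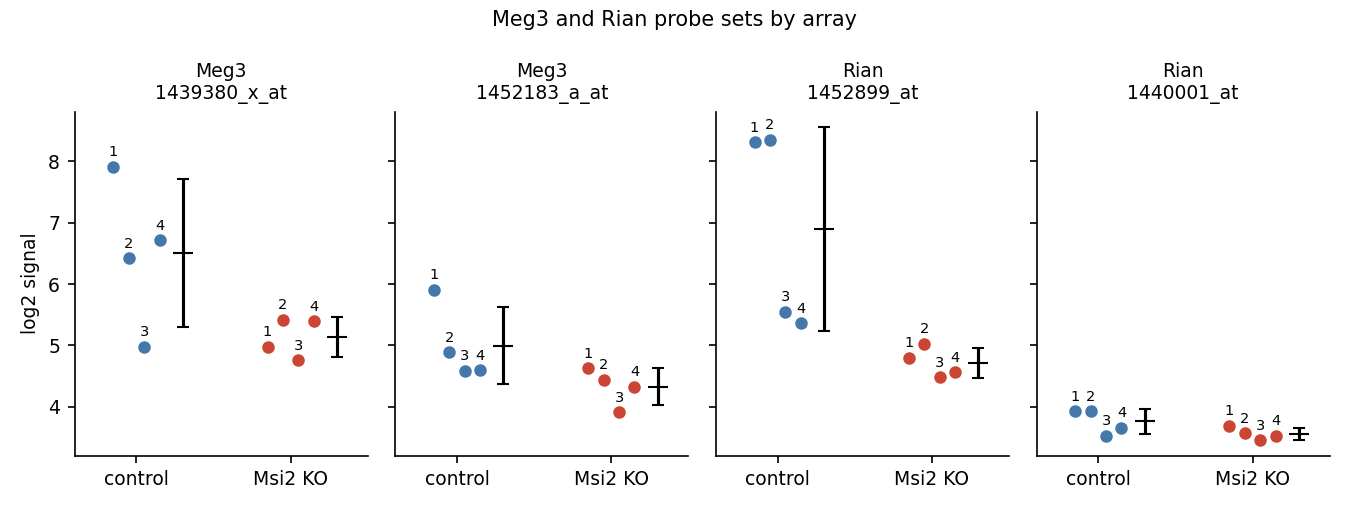
Log2 signal (y axis) of the 2 measured probe sets each of Meg3 and Rian on the control and Msi2 KO arrays (x axis), with points numbered by replicate and bars for the mean and SD of 4 arrays. For the brighter Rian probe set, controls 1 and 2 sit at 8.31 and 8.35, controls 3 and 4 at 5.55 and 5.36, and the KO arrays between 4.48 and 5.03.

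The lower means of Meg3 and Rian did not rest on Msi2 KO 3, and its size moved with the controls. Without Msi2 KO 3 the differences were -1.24 for Meg3 and -2.10 for Rian. Without control 1 they were -0.90 and -1.71, and without control 3 they were -1.88 and -2.62. Within the arrays with high Xist (3 control, 2 KO) Meg3 differed by -0.96 and Rian by -1.90, and within those with low Xist (1 control, 2 KO) by -2.71 and -3.39. With the mean of both probe sets in place of the brighter one, the differences were -1.02 and -1.19.

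The other measured members did not share this direction, apart from Ndn. For Igf2r, the receptor that clears the growth factor IGF2, the brighter probe set read 6.35, 7.16, 8.07 and 6.67 in controls and 7.76, 7.35, 7.99 and 7.43 in KO. The KO arrays lay inside the range of the controls, in its upper part. The mean difference was 0.57 ± 0.34 (SE), and 0.33 without control 1. The second Igf2r probe set differed by 0.42, with 3 of 4 KO arrays above all controls and Msi2 KO 1 at 5.09.

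Grb10 encodes an adaptor that restrains insulin and IGF receptors. Its brightest probe set read 8.58, 9.59, 9.97 and 9.48 in controls and 9.79, 9.89, 9.88 and 9.50 in KO, a difference of 0.36 ± 0.27 (SE). Control 1 was the lowest array, and the groups overlapped. Leaving out control 1 gave 0.09. The dimmest Grb10 probe set gave the largest difference of the 3, 0.66 ± 0.28 (SE), with control 4 lowest at 5.18 and Msi2 KO 4 highest at 7.11, and the remaining one gave 0.27. All 3 probe sets were higher in the mean of the KO arrays. Within the high-Xist arrays the brightest probe sets of Igf2r and Grb10 differed by 0.41 and 0.01, and within the low-Xist arrays, where control 1 is the only control, by 1.20 and 1.26.

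**Figure D2:**
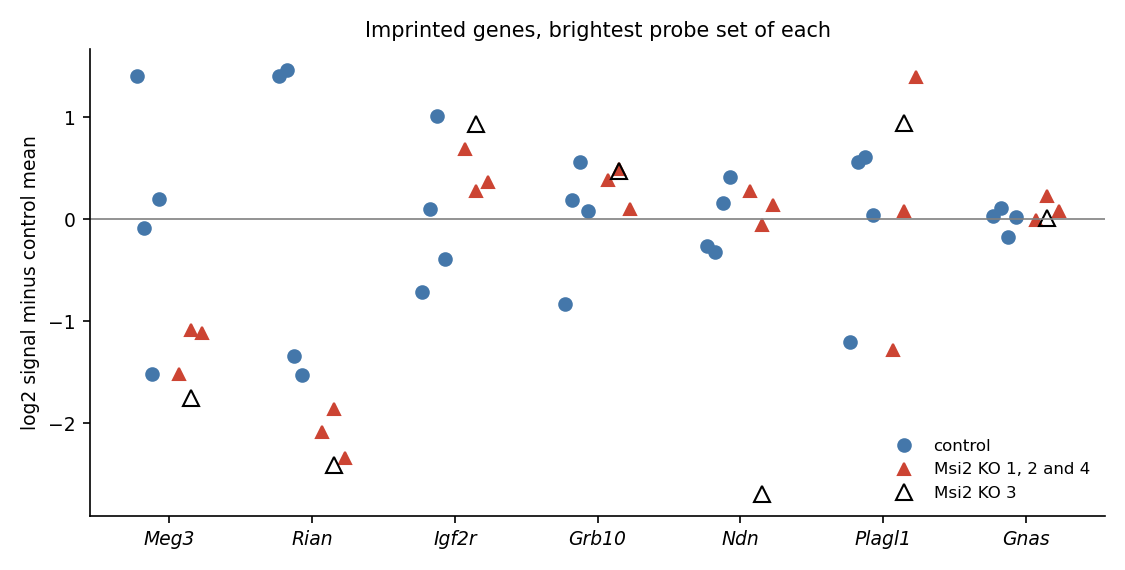
Log2 signal minus the control mean (y axis) for the brightest probe set of each of the 7 measured genes (x axis), with circles for control arrays, filled triangles for Msi2 KO 1, 2 and 4 and open triangles for Msi2 KO 3. Rian is the only one of these genes with all KO arrays outside the range of the controls, where 7.11% of all genes had groups that did not overlap. Its KO arrays and controls 3 and 4 lie in the span of absent Xist, where their order is not read. Ndn is low on Msi2 KO 3 alone, at -2.70.

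Ndn encodes necdin, a paternally read growth suppressor known in blood stem cells for its part in quiescence. It was low on 1 array, Msi2 KO 3, and near the controls on the other KO arrays. The brightest of its 5 measured probe sets read 7.87, 7.81, 8.29 and 8.54 in controls and 8.41, 8.07, 5.43 and 8.27 in KO. The difference of -0.58 ± 0.60 (SE) turned to 0.12 without Msi2 KO 3, and it was -1.36 within the high-Xist arrays, which include Msi2 KO 3, and 0.37 within the low-Xist arrays.

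The same array was lowest on each of the 5 Ndn probe sets. In order of brightness, the next 3 read 4.63 there against 6.97 to 7.91 elsewhere, 4.53 against 6.42 to 8.45 and 3.97 against 6.22 to 8.18. The dimmest stayed between 3.94 and 4.86 on all arrays, in the span of absent Xist. On the third and the fourth of them control 3 was the highest array, at 8.45 and 8.18.

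**Figure D3:**
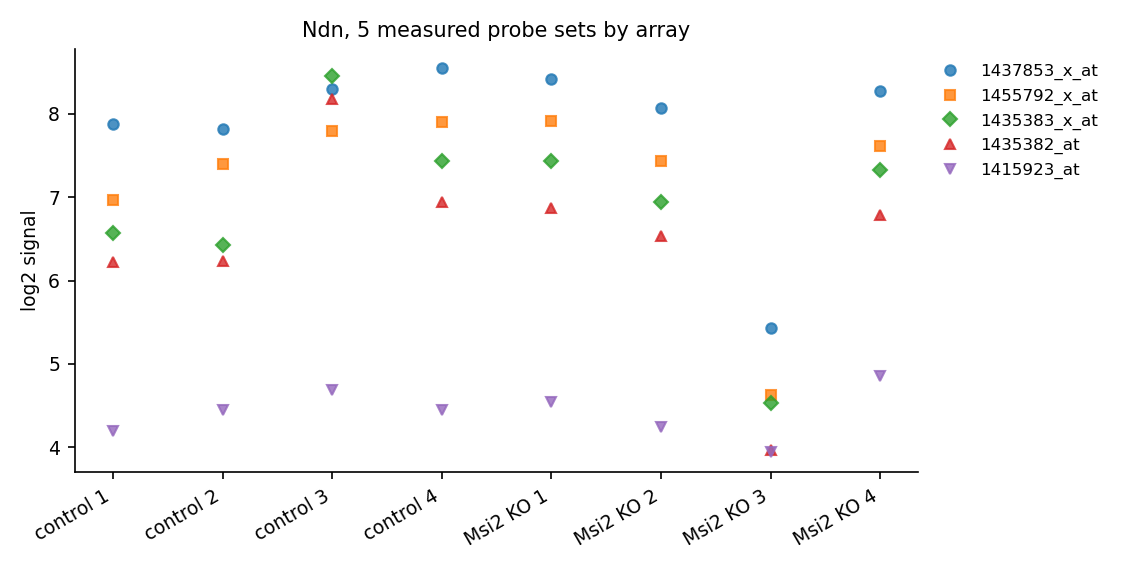
Log2 signal (y axis) of the 5 measured Ndn probe sets, 1 symbol each, on the 8 arrays (x axis). The 4 brighter probe sets drop together on Msi2 KO 3, to between 3.97 and 5.43, and lie between 6.22 and 8.54 on the other arrays.

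Plagl1, a zinc finger factor of the imprinted growth programme, had 1 measured probe set of 3. It read 4.26, 6.02, 6.08 and 5.50 in controls and 4.19, 5.55, 6.41 and 6.87 in KO. Control 1 and Msi2 KO 1 were the low arrays, and the difference of 0.29 ± 0.60 (SE) was smaller than its error. These arrays, control 4 and Msi2 KO 2 lay in the span of absent Xist. The name of this probe set ends in _x_at, as for the brighter one of Meg3. Gnas was the steadiest gene of the list. Its brightest probe set read 11.77, 11.86, 11.58 and 11.77 in controls and 11.74, 11.98, 11.76 and 11.83 in KO, a difference of 0.08 ± 0.13 (SE). Its other 2 measured probe sets differed by -0.26 ± 0.17 and 0.09 ± 0.18 (SE), so its 3 measured probe sets had no common direction.

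No value could be given for the remaining members. All 5 probe sets of Peg3, a paternally read zinc finger gene, were listed at 0. The 1 probe set of H19 is shared with Mir675, the microRNA gene inside it, and was also listed at 0. Since the step that set these values to 0 is not stated, this gives no level for Mirg, Peg3 or H19.

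Set against each other, the mean of Meg3 and Rian stood below the mean of the other 5 measured genes on every KO array and also on controls 3 and 4, so the groups overlapped. Relative to the control mean, the Meg3 and Rian mean was -1.81, -1.47, -2.08 and -1.73 on Msi2 KO 1 to Msi2 KO 4 and 1.41, 0.69, -1.43 and -0.66 on controls 1 to 4. The mean of the other 5 was 0.01, 0.20, -0.07 and 0.42 in KO and -0.59, 0.13, 0.44 and 0.03 in controls. The Meg3 and Rian mean differed between the groups by -1.77 and that of the others by 0.14. The first mean minus the second was 2.00, 0.56, -1.87 and -0.70 on controls 1 to 4 and -2.15 to -1.68 on the KO arrays, with control 3 inside the KO range. With all measured probe sets of each gene averaged, the Meg3 and Rian difference was -1.10.

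Over the 18 probe sets, 10 were lower and 8 higher in the mean of the KO arrays, with a median difference of -0.12 against 0.00 over all 24404. By gene, 3 of 7 brightest probe sets were lower (Meg3, Rian and Ndn) and 4 higher, where 49.6% of all genes had a lower mean in KO. The limma fit with Benjamini-Hochberg adjustment called 0% of all probe sets at an adjusted p of 0.05 (0 of 24404, smallest 0.0609) and gave 2371 (9.72%) at an unadjusted p under 0.05.

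**Figure D4:**
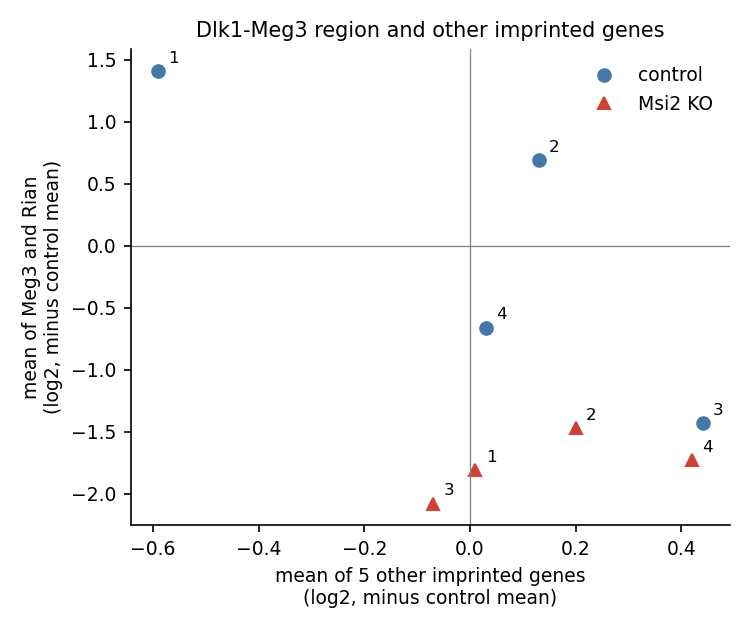
Mean of Meg3 and Rian (y axis) against the mean of Igf2r, Grb10, Ndn, Plagl1 and Gnas (x axis), both as log2 signal minus the control mean, 1 point per array, numbered by replicate. The 4 KO arrays lie between -2.08 and -1.47 on the y axis, and the controls are spread from -1.43 to 1.41.

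Of 50 further imprinted genes, 23 were measured, 20 were listed at 0 and 7 had no probe set of their own. In KO 13 were lower and 10 higher (10 and 2 when dim probe sets were left out), with a median difference of -0.01 against 0.00 over all 10720 genes, and limma called 0 of 23 (smallest adjusted p 0.51, with 1 at an unadjusted p under 0.05). Over all genes by their brightest probe set limma called 0%, with 11.1% at an unadjusted p under 0.05.

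Among the 11 measured genes listed here as read mainly from the maternal copy 8 were lower, among them Tssc4 at -0.01 and Commd1 at -0.00. Among the 12 listed as read mainly from the paternal copy 5 were lower. Which copy was read in these cells was not measured. Gatm, an enzyme of creatine synthesis, read 8.83, 8.96, 8.69 and 8.89 in controls and 8.39, 8.67, 8.61 and 8.53 in KO, with a limma adjusted p of 0.51. It was the only 1 of the 23 whose groups did not overlap, where 3.48% of all genes had every KO array below the controls and 3.63% above, 7.11% together. Atp10a, a lipid flippase, differed by -0.49, Ppp1r9a, an actin-binding protein, by -0.21 and the ubiquitin ligase Ube3a by -0.12. None of these passed.

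On the paternal side, Airn, the non-coding RNA that lies across Igf2r and silences it in cis on the paternal copy, read 5.54, 5.42, 5.45 and 5.67 in controls and 6.22, 5.60, 5.77 and 5.91 in KO. It differed by 0.35 ± 0.16 (SE, limma adjusted p 0.517), with 3 of 4 KO arrays above all controls. Controls 1 to 3 lay in the span of absent Xist. Kcnq1ot1, another silencing non-coding RNA, differed by -0.11. Peg12 differed by 0.22, Peg10, derived from a retrotransposon, by 0.46 and Nap1l5 by 0.67, all 3 with means below 5 in both groups. Of the direct neighbours of the members, Dlk1, Igf2, Magel2, Usp29, Zim1, Cdkn1c, Phlda2 and Slc22a2 were listed at 0, as was the 1 probe set naming Snrpn alone. Rtl1, Dio3 and Slc22a3 had no probe set of their own.

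**Figure D5:**
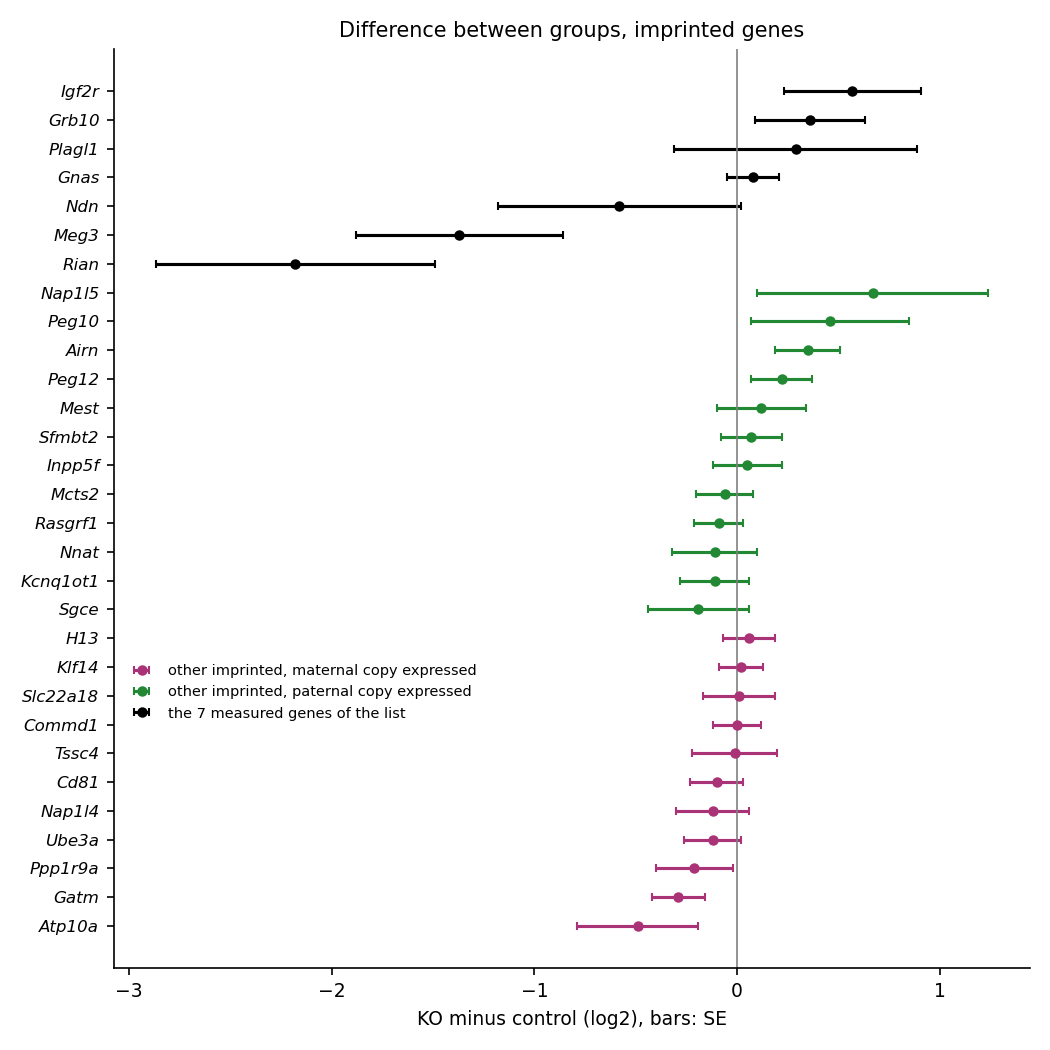
Difference between KO and control in log2 signal (x axis) for the brightest probe set of each measured imprinted gene (y axis). Bars give the SE of the limma fit. The 7 of the list are in black, other genes listed as maternally read in purple and other genes listed as paternally read in green. Rian is at -2.18 and Meg3 at -1.37, genes chosen by this difference, and the other maternally and paternally read genes lie between -0.49 and 0.67.

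Genes that keep or read imprints were measured for 8 of 11, and limma called 0 of 8, with 0 at an unadjusted p under 0.05. Of these 5 were lower and 3 higher, with a median difference of -0.07. The methyltransferases Dnmt3b and Dnmt3a differed by -0.32 and -0.24, the insulator protein Ctcf by -0.22 and Trim28, the co-repressor at imprinted regions, by 0.28. Of 13 measured genes of IGF and insulin signalling, the pathway on which Igf2r and Grb10 act, 8 were lower and 5 higher (median -0.05), and limma called 0, with 0 at an unadjusted p under 0.05. The transcription factor Foxo1 differed by 0.41, the kinase subunit Pik3r1 by -0.29 and the binding proteins Igfbp7 and Igfbp4 by -0.42 and -0.18. Igfbp7 lay between 3.97 and 4.89 on all arrays, in the span of absent Xist. Igfbp4 was 1 of the 13 without overlap, at 11.66 or more in controls and 11.65 or less in KO, where 7.11% of all genes had none.

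The means of 4 marker lists are given beside these values, and their part in the differences of Meg3, Rian and Ndn was not tested. In none of them did limma call a gene. Over all genes by their brightest probe set, limma called 0% and gave 11.1% at an unadjusted p under 0.05, and 49.6% had a lower mean in KO. Of the stem cell markers, 15 of 17 measured had a lower mean in KO, with 0 called by limma and 6 at an unadjusted p under 0.05. Their mean stood at -0.28, -0.33, -1.40 and -0.24 on Msi2 KO 1 to Msi2 KO 4 and between -0.18 and 0.10 on the controls, so the array with low Ndn was also the one with the lowest stem cell markers. All 11 measured erythroid markers had a higher mean in KO, again with 0 called and 6 at an unadjusted p under 0.05, and list means of 0.42 to 2.03 on the KO arrays and -0.41 to 0.51 on the controls. The gate marker Kit and the progenitor markers Cd34 and Flt3 had a mean of -0.87 on Msi2 KO 3 and -0.05 to 0.23 on the other KO arrays. Kit itself was not low on Msi2 KO 3, at 9.02 against a control mean of 8.70. Flt3 read 7.52 on that array against a control mean of 9.62, and Cd34 9.68 against 10.51. Of 14 markers of marrow stroma and endothelium 6 were measured, with list means of -0.85 to 0.16 in KO and -0.61 to 0.28 in controls, and the other 8, among them Col1a1, Lepr, Cxcl12 and Kdr, were listed at 0.

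The genes whose pattern over the 8 arrays was nearest that of Meg3 were Eps8, Mpdz, Usp53, Uaca and Ldlrad4. The measure was the root mean square difference of the log2 deviations from each gene's own mean, which was 0.46 for Eps8 and 0.50 for each of the others, against a median of 1.06 over 10713 genes. Mpdz, a scaffold protein with many PDZ domains, read 6.05, 5.10, 4.58 and 4.91 in controls and 4.26, 3.88, 3.98 and 4.13 in KO. Control 1 was the highest array for each of the 5, as for Meg3, which follows largely from how they were picked. Eps8 and Mpdz lay in the span of absent Xist on all arrays but control 1. Rian lay at 0.93 from Meg3, nearer than Gnas (1.01), Ndn (1.19), Grb10 (1.41), Igf2r (1.58) and Plagl1 (1.63).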

How the data were processed

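RNA of 4 control and 4 Msi2 KO samples of mouse LSK cells was hybridised to 8 Affymetrix arrays. What the authors deposited is a table of log2 signal, made with RMA per the submitters' processing notes (version not given in the sources used here). Of 45101 probe sets 20664 were at 0 on all arrays and 0 on some only. RMA gives no such values and the step is not stated, so these were left out, as were the 64 AFFX controls, which the plan had not foreseen. Names came from the platform annotation, updated through gene IDs with a RefSeq table (GRCm38.p6): 34958 probe sets had 1 gene name, 932 several and 9211 none. A gene was represented by its probe set with the highest mean.

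All 24404 probe sets were fitted with limma 3.58.1 in R 4.3.3 (lmFit, eBayes, Benjamini-Hochberg, threshold 0.05), a procedure tested on simulated data. P-values set each difference between the groups against the spread between these arrays. Whether that is a spread between single mice is not given. The members, lists and alternatives were chosen with earlier results of these data known. Named are all members, their listed neighbours, the 4 genes per list with the smallest p and the 5 genes nearest Meg3. Alternatives changed the normalization, filters, choice of probe set, Xist, array weights and the arrays used. The replicate numbers 1 to 4 did not pair the arrays (correlations of deviations 0.132, -0.121, 0.079 and -0.038).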

Additional observations from a re-analysis of the deposited data

Results flagged for a closer look

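Over the 35 probe sets of the members and the other named genes, 70 groups of 4 arrays were examined, and 8 held 1 array far from the other 3. Chance gives about 1 group in 20. Of the 8, 4 were the brighter Ndn probe sets in KO, each low on Msi2 KO 3. From the brightest down they read 5.43 there (other KO arrays 8.07 to 8.41), 4.63 (7.43 to 7.91), 4.53 (6.94 to 7.43) and 3.97 (6.53 to 6.87). These 4 probe sets measure the same RNA samples and are not independent. Nap1l5, a paternally read gene, read 6.03 on Msi2 KO 1 and 3.26 to 3.29 on the other KO arrays, so its mean difference came from 1 array. Trim28 was high on Msi2 KO 2 at 11.10 (others 10.47 to 10.55), and Igfbp4 on Msi2 KO 1 at 11.65 (others 11.50 to 11.51). In the controls, Foxo1 was high on control 3 at 7.66 (others 7.28 to 7.30).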

How the results depend on the processing

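Over the alternatives, Meg3 and Rian kept their direction in 19 of 19 each, from -2.71 to -0.67 and from -3.39 to -1.19. The mean of both ran from -3.05 to -1.10. Both genes were chosen by this difference, so the kept direction is a description and no test. The intensity trend, the replicate block and keeping the probe sets at 0 in the adjustment cannot change these differences. Leaving out 1 array gave -2.25 to -1.30 for that mean and -0.06 to 0.29 for the other 5 members. The values of both means farthest from 0 came from the low-Xist arrays alone, an alternative added after the data were seen (-3.05 and 0.70, 1 control against 2 KO), and the cause was not tested. With the replicate block the Meg3 and Rian mean was -1.77, that of the others 0.14, and the calls did not change. With Xist as a covariate they were -2.04 and 0.25. Ndn turned to 0.12 without Msi2 KO 3 and to 0.37 in the low-Xist arrays. Plagl1 turned to -0.11 without control 1 and -0.08 without Msi2 KO 4. Gnas turned to -0.03 with the mean of its probe sets and to -0.26 when probe sets ending in _s_at or _x_at were left out, which leaves another probe set to stand for it. Of the other imprinted genes 0 were called under any alternative, and when dim probe sets were left out 10 were lower and 2 higher, against 13 and 10 with them. Over all probe sets the count of calls went from 0 to 1 with repeated quantile normalization, without dim probe sets, without _s_at and _x_at probe sets or with array weights, to 2 with an intensity trend, and to 0 or 1 when 1 array was left out (1 without Msi2 KO 1). These calls were Aplp2, Elovl1 and Zg16, chosen after their values were seen, and no member. Signals of KO arrays for Rian and Meg3 near those of absent Xist limit the size of any difference that can be read. Dim probe sets being left out removes Meg3 and Rian, so no value could be given there.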

Other observations

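The genes nearest Rian over the 8 arrays, a search added after the values were seen, were Vpreb1, Kank2, Rnf227, Smim6 and Coro7, at 0.81 to 0.95 by the same measure against a median of 1.51 over all genes. Vpreb1, part of the surrogate light chain of early B cells, read 8.82, 8.97, 7.67 and 7.31 on controls 1 to 4, with the same high pair as Rian, and 7.83, 7.39, 6.02 and 6.77 in KO. Rnf227 had that pair as well, at 7.47 and 7.22 against 6.09 and 6.08 on controls 3 and 4. Both genes were picked by their nearness to Rian, so the shared pair follows largely from that choice. Meg3 lay at 0.93 from Rian, as near as Smim6.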
